A study of Drosophila melanogaster with 4 samples.

Results

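Broad dSFMBT domains on the large autosome arms of Drosophila melanogaster were mapped by chromatin immunoprecipitation followed by sequencing in larvae at the third instar. All samples came from the strain Oregon-R with the wild type genotype, without any treatment in the labels, and comprised 2 ChIP replicates made with the antibody Q2642 and 2 inputs. Chromatin was prepared from homogenised larval tissue, so a region stands for a mixture of the cells of the animal. The domains were selected on their measured width and their presence in both replicate lists, from the list that combines the ChIP replicates. A region on arm 2L, 2R, 3L or 3R was a domain when it was 6000 bp or wider and overlapped by at least 1 bp a region of each replicate list. This gave 234 domains of the 9756 regions of the combined list over all sequences. Of the 7197 combined-list regions on the 4 arms, 3121 (43.4%) were in both replicate lists and are called shared below, and 234 of those 3121 (7.50%) were domains. The remaining 2887 are called narrower shared regions. Among combined-list regions of 6000 bp or more on these arms, 234 of 238 (98.3%) were in both replicate lists. Width and presence in the replicates chose the domains, so neither is a result, and as every value below comes from the same ChIP, all are given as descriptions without a test. No region list of the inputs was used, and it is not stated if the inputs entered the authors' region scores.

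dSFMBT is a Polycomb group protein of the fly. It has MBT repeats, which bind histone tails with mono- or dimethylated lysines, and it forms the complex PhoRC with Pho, a Polycomb group protein that binds DNA by sequence. PhoRC is known from Polycomb response elements, short stretches of DNA at which the Polycomb repressive complexes assemble, while the histone mark left by these complexes, trimethylation of lysine 27 of histone H3, often spreads over long stretches around them. Positions are given in FlyBase release 5, the build named in the file headers. No gene is named here, because the files carry no gene names and the only gene table used was for release 6.

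The width of the 234 domains had a median of 7361.5 bp, with the middle range (25th to 75th percentile) from 6637.5 to 9162 bp, and the widest reached 20554 bp. Many lay close to the lower limit, with 95 of 234 under 7000 bp and 43 at 10000 bp or more. Together they spanned 1.97 Mb, which was 18.4% of the length of all shared regions on the 4 arms and 2.04% of the assembled length of the arms. The limit cut through a continuous range of widths. The 3 domains just inside it were 6003, 6014 and 6016 bp wide with combined scores of 0.69, 0.84 and 0.43, and the 3 shared regions just outside were 5990, 5990 and 5985 bp wide with scores of 0.64, 0.52 and 0.54. The score is the authors' own value for a region and is treated as log2, a scale read from the values and not stated in the headers. What it is relative to is not stated either, and a ratio given below is 2 raised to the score.

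The name broad was first checked against each replicate alone, since the combined list could be wider than either library. Replicate 1 had a piece of at least 6000 bp in 60 of the 234 domains (25.6%, 95% exact Clopper-Pearson interval 20.2 to 31.7%) and replicate 2 in 98 (41.9%, 35.5 to 48.5%). A piece is a region of a replicate list that overlaps a domain. In 46 domains both replicates had such a piece, and in 122 (52.1%) neither had one, so these were broad in the combined list alone. In the other direction, all 61 regions of at least 6000 bp that replicate 1 had on the 4 arms overlapped a domain, as did 99 of the 100 in replicate 2. The one outside lay on 2L from 7253263 to 7259294, and its combined-list region was 5764 bp wide. The combined list draws on the same replicates, so this overlap is no separate support for the name. Intervals here cover counting error only, and read depth was unknown from these files.

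Each replicate broke many domains into pieces. Replicate 1 had 404 pieces in the 234 domains, 1.73 ± 0.77 per domain (SD over domains), and replicate 2 had 370, 1.58 ± 0.68. Replicate 1 had 2 or more pieces in 131 domains (56.0%, 95% exact interval 49.4 to 62.4%), against 8.04% of all 3121 shared regions on the arms. Replicate 2 had 2 or more in 114 domains (48.7%, 42.2 to 55.3%), against 6.47% of all shared regions. A wider region has more room for pieces, and the part of the width limit in the higher shares of the domains was not tested. Both replicates split 78 domains (33.3%, against 3.52% of all shared regions). Replicate 1 alone split 53 (22.6%, against 3.05% of narrower shared regions) and replicate 2 alone split 36 (15.4%, against 1.94%). In 67 domains (28.6%) each replicate had a single piece, against 93.9% of narrower shared regions. The number of pieces was the same in both replicates for 121 domains, higher in replicate 1 for 69 and higher in replicate 2 for 44.

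**Figure D1:**
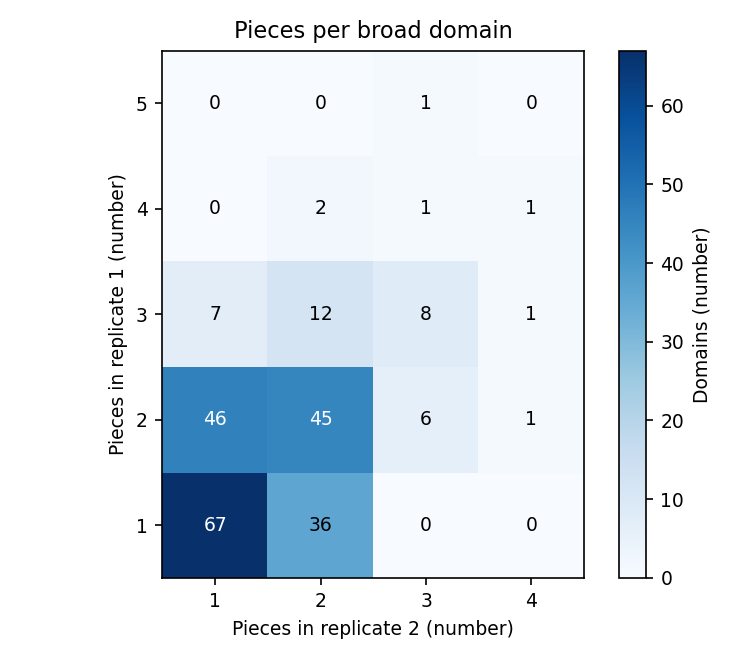
Number of domains (shade and figure in each cell) by the number of pieces in replicate 1 (vertical axis) and in replicate 2 (horizontal axis). The cell with 1 piece in each replicate holds 67 domains, the cell with 2 in each holds 45, and 1 domain reaches 5 pieces in replicate 1.

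The split domains had higher median widths and lower median scores than the unsplit. The 67 domains with 1 piece in each replicate had medians of 6810 bp in width and 0.77 in combined score, whereas the 78 split in both had medians of 8483 bp and 0.60. The 36 split in replicate 2 alone had the lowest median score of these classes, 0.57, and the 53 split in replicate 1 alone had 0.68. Of the 67 unsplit domains 11 had a combined ratio above 2, and of the 78 split in both 4 did. With rising width unsplit domains became fewer. Unsplit domains made up 41.1% of the 95 domains from 6000 to below 7000 bp, 32.1% of the 53 from 7000 to below 8000 bp, 18.6% of the 43 from 8000 to below 10000 bp and 6.98% of the 43 of 10000 bp or more. Median scores in the same classes were 0.59, 0.66, 0.63 and 0.74, so the widest class was both the most often split and the highest in median score.

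The breaks between pieces were short. Replicate 1 had 170 gaps inside domains with a median of 554.5 bp, and replicate 2 had 136 with a median of 546.5 bp. Gaps of 200 bp or less numbered 39 in replicate 1 and 35 in replicate 2, and at least 1 pair of pieces in replicate 2 touched without a gap. The longest gap was 4212 bp, in replicate 2 inside the 3L domain from 3388005 to 3394280. It ran from 3389998 to 3394209, so the last replicate 2 piece overlapped only the right edge of the domain. Replicate 1 also had 2 pieces there, with a gap of 935 bp. The longest gap of replicate 1 was 2610 bp, inside the 2L domain from 9565037 to 9571671. Where both replicates split a domain, 62 of 110 gaps of replicate 1 (56.4%) overlapped a gap of replicate 2, and 61 of 100 gaps of replicate 2 (61.0%) overlapped one of replicate 1. Over all domains, 93 of the 170 gaps of replicate 1 lay wholly inside a piece of replicate 2, and 56 of the 136 gaps of replicate 2 lay wholly inside a piece of replicate 1. An overlap of 1 bp was enough for a gap to count as meeting a gap. The 56 include a gap of 0 bp, in the 2L domain from 418458 to 424958. Breaks of the 2 libraries thus met at least in part in some domains, and in others a break was seen in a single library.

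Pieces covered most, but not all, of a domain. The median domain was covered over 78.0% of its width by replicate 1 and over 84.9% by replicate 2, and 198 of the 234 were covered at least 50% by each. Cover under 50% was found in 10.7% of domains and 5.99% of narrower shared regions for replicate 1. For replicate 2 it was found in 5.98% and 2.63%. Of the 1969 kb in domains, 1322 kb (67.1%) lay in pieces of both replicates, 451 kb (22.9%) in pieces of 1 replicate and 196 kb (9.95%) in none. In the narrower shared regions 71.9% of the length lay in pieces of both, 19.7% in 1 and 8.41% in none. In 46 domains (19.7%) over 20% of the width lay in no piece of either list. The 90th percentile of this share of the width was 25.8% in domains and 21.5% in narrower shared regions. Edges were covered less often than the middle. The first piece began a median of 335.5 bp inside the domain's start in replicate 1 and 250.0 bp in replicate 2, and the last piece ended a median of 349.5 and 185.5 bp before the domain's end. In a single domain, on 3L from 11286218 to 11292968, the replicates had no bp in common: the replicate 1 piece of 2779 bp and the replicate 2 piece of 2092 bp did not overlap. It is counted as a domain by the rule, though no base of it was in both lists. Among narrower shared regions the lowest share of the width in both replicates was 0% too.

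**Figure D2:**
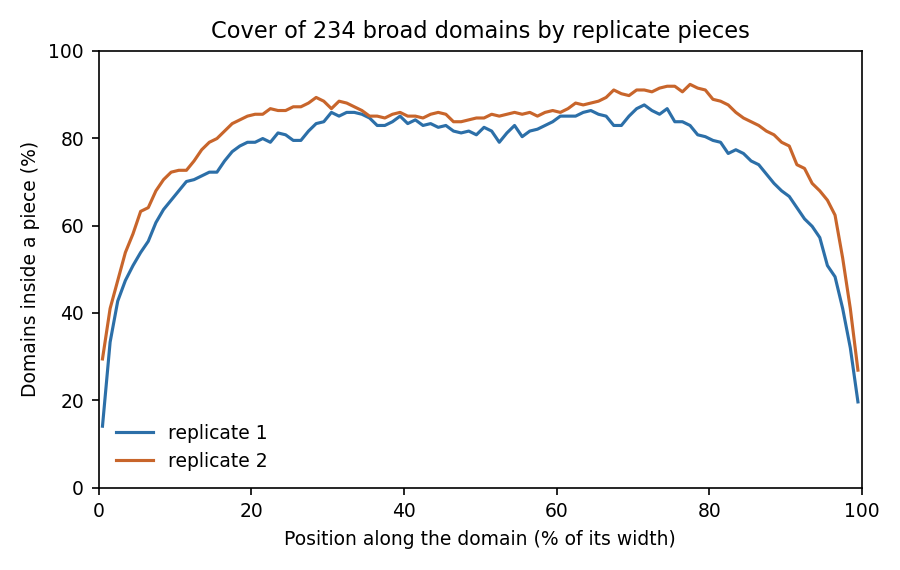
Share of the 234 domains (vertical axis, percent) that lie inside a replicate piece at each position along the domain (horizontal axis, percent of its width from its lower coordinate). Between 10 and 90% of the width the curves run from 67.9 to 87.6% in replicate 1 and from 72.6 to 92.3% in replicate 2, and in the first percent of the width they are at 14.1 and 29.5%.

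The median combined score of the domains was 0.64, the middle range was 0.54 to 0.81, and the extremes were 0.34 and 1.67. The narrower shared regions had a lower median, 0.54, and a far higher maximum, 2.86. A combined ratio above 2 was found in 24 of 234 domains (10.3%, 95% exact interval 6.68 to 14.9%), against 12% of all shared regions on the arms, a background that lies inside the interval. In 21 of the 24, the score of each replicate was also above a ratio of 2, as it was in 243 of 350 such narrower shared regions. The highest domain ranked 51 among the 3121 shared regions by combined score. Among the domains, width and score had a Spearman rho of 0.28 across 234 regions, which share their libraries and are not independent.

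A replicate score of a domain is here the mean score of its pieces weighted by the bp each has inside the domain. The median over domains was 0.71 in replicate 1, from 0.39 to 1.62, and 0.74 in replicate 2, from 0.37 to 1.72. It was higher in replicate 2 in 138 of 234 domains (59.0%), against 59.8% of all shared regions on the arms, a share near the background. The highest piece was higher in replicate 2 in 134 domains (57.3%), against 59.5% of all shared regions. The SD over the replicates (n = 2) had a median of 0.064 in the domains, and 132 domains (56.4%) had replicate scores within 0.1 of each other. Narrower shared regions had a median SD of 0.077, with 46.2% within 0.1. For the highest piece, which is not weighted, the median SD was 0.068 in domains and 0.078 in narrower shared regions. The part of weighting over several pieces in these differences was not tested. Across the 234 domains the replicate scores had a Spearman rho of 0.76 and a Pearson r of 0.84. The combined score was below both replicate scores in 140 domains (59.8%), between them in 93 and above both in 1, whereas it was below both in 48.9% of narrower shared regions.

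**Figure D3:**
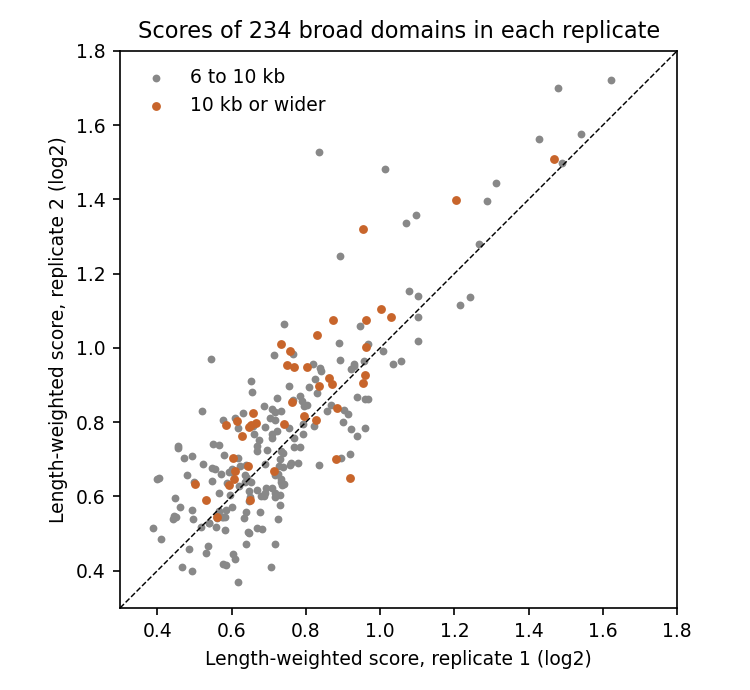
Length-weighted score of each domain in replicate 1 (horizontal axis, log2) and replicate 2 (vertical axis, log2), with 1 point per domain, the 43 domains of 10 kb or more in a second colour and the line of equal scores dashed. Most points lie near the line, 138 of 234 above it, and the point farthest above it is the 3R domain at 0.84 and 1.53.

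Pieces of the same domain differed in score. In replicate 1 the highest piece of a split domain exceeded the lowest by a median of 0.20 (middle range 0.09 to 0.33, 131 domains), and in replicate 2 by 0.22 (0.10 to 0.36, 114 domains). The difference was above 0.5 in 14 domains of replicate 1 and 17 of replicate 2. In 49 of the 78 domains split in both replicates the highest pieces lay in the same part, left or right of the middle. Over the 78 domains the centres of these pieces were a median of 1097 bp apart. With only left and right as outcomes, many would coincide without any agreement of the libraries, which was not tested. The median of the highest piece, averaged over the replicates, was 0.77 over all domains.

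The 10 widest domains were from 16084 to 20554 bp wide, with 5 on 2R, 3 on 2L and 1 each on 3L and 3R. The widest, on 2R from 8897904 to 8918457, had a combined score of 0.86 (ratio 1.81), with 0.87 in replicate 1 and 0.90 in replicate 2. Replicate 1 divided it into 3 pieces and replicate 2 into 4. The highest piece was 11211 bp at 0.98 in replicate 1 and 8578 bp at 1.17 in replicate 2, and in replicate 2 a piece of 2236 bp at 0.58 preceded it. A stretch of low score followed it in both, with 4402 bp at 0.57 and 4372 bp at 0.60, and then a last piece of 2532 bp at 0.90 and 2867 bp at 0.82. The drop after the highest piece and the higher last piece were seen in each library.

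The widest domain on 3R, from 12065415 to 12083916 (18502 bp), had a combined score of 0.72, with 0.65 in replicate 1 and 0.79 in replicate 2, and 2 pieces in each. Both replicates had the higher piece on the left, at 0.91 and 0.99, and the lower on the right, at 0.57 and 0.66, but the break lay at different places. On 2L the widest, from 22166362 to 22184003 (17642 bp), scored 0.77, with 0.80 in replicate 1 and 0.82 in replicate 2. It had 4 pieces in each replicate and the highest piece first in each, at 0.91 and 1.24. The widest on 3L, from 9363160 to 9380400 (17241 bp), had a score of 1.01 and was unbroken in both libraries, with a piece of 14181 bp at 1.00 in replicate 1 and of 17170 bp at 1.10 in replicate 2.

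**Figure D4:**
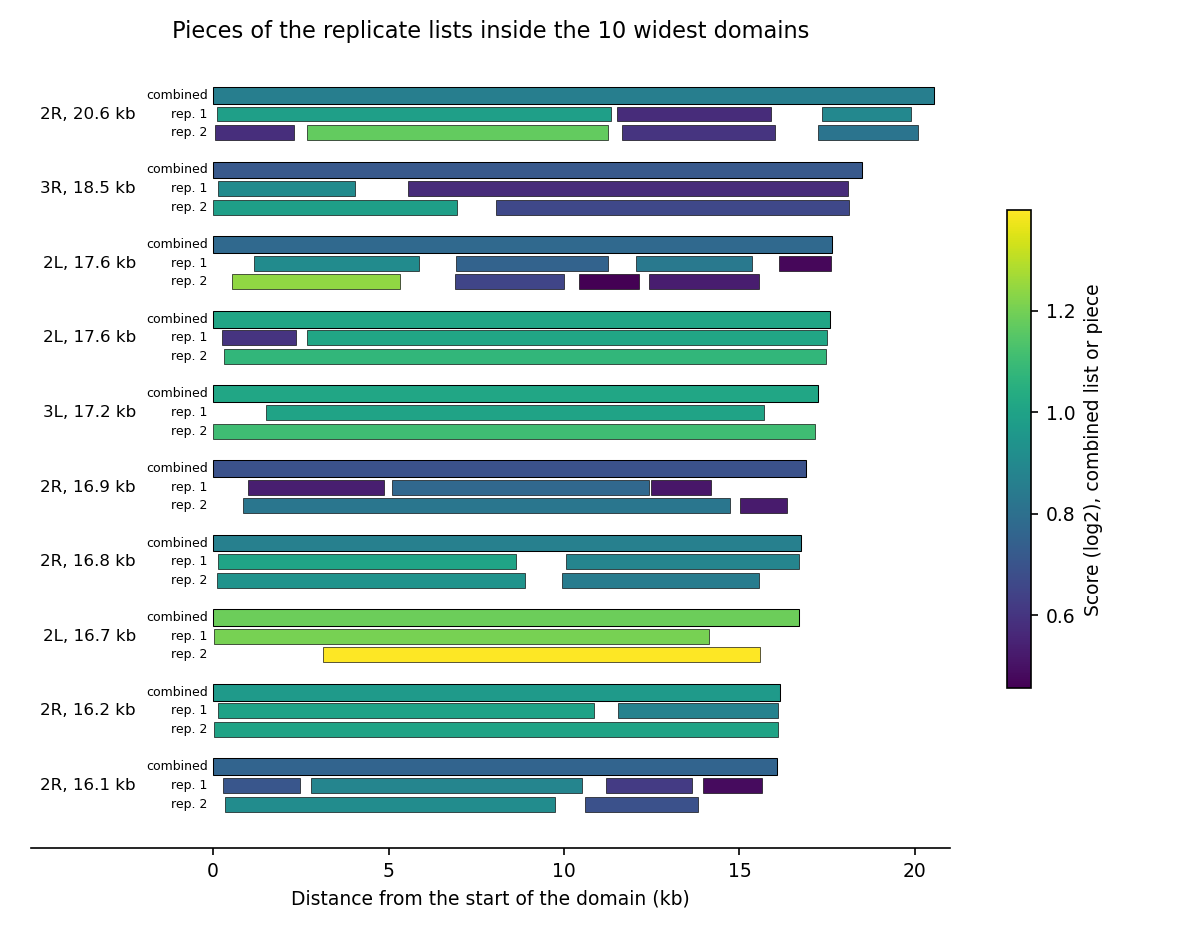
The 10 widest domains in order of width, each with the combined-list region (top bar) and its pieces in replicates 1 and 2 (lower bars), by distance from the domain's start in kb (horizontal axis). Colour gives the log2 score of the region or piece. The widest, on 2R, has 3 pieces in replicate 1 and 4 in replicate 2, while the domain of 17.2 kb on 3L is unbroken in both.

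Among the other widest domains a long single piece in both libraries was found once more, on 2L from 11999183 to 12015889 (16707 bp). It had the highest score of the 10, 1.19 (ratio 2.27), with 1.20 in replicate 1 over 14116 bp and 1.40 in replicate 2 over 12451 bp, and the replicate 2 piece began 3133 bp inside the domain. A domain on 2L from 22956424 to 22974017 (17594 bp) scored 1.01 and was 1 piece of 17152 bp at 1.07 in replicate 2, while replicate 1 cut off 2112 bp at 0.60 from a piece of 14840 bp at 1.01. It ended 0.038 Mb before the end of the assembled arm that faces the centromere. On 2R, the domain from 17587263 to 17603417 (16155 bp) had replicate scores of 0.96 and 1.00, and its 16091 bp in replicate 2 were unbroken while replicate 1 had 2 pieces. The 2R domain from 18562663 to 18579423 (16761 bp) was broken at nearly the same place in both libraries, into 8510 and 6651 bp in replicate 1 and into 8775 and 5605 bp in replicate 2, with replicate scores of 0.95 and 0.90. The 2R domain from 1134716 to 1151599 (16884 bp) had 3 and 2 pieces and replicate scores of 0.66 and 0.80.

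Only 4 domains had 7 or more pieces in the sum of both replicates, with combined scores from 0.54 to 0.86, and these included the widest on 2R and on 2L. A further 11 domains tied at 6 pieces, with scores from 0.37 to 0.81, and the widest of them is named here as the fifth. The 2R domain from 5432223 to 5446499 (14277 bp) had 5 pieces in replicate 1 and 3 in replicate 2, with replicate scores of 0.61 and 0.65. In both, the middle piece was the highest, at 0.79 and 0.80, over nearly the same 3138 and 3269 bp. The 2R domain from 4531187 to 4547270 (16084 bp), also among the 10 widest, had 4 and 2 pieces and scores of 0.76 and 0.85. The 2L domain from 840657 to 853931 (13275 bp) had 4 and 3 pieces, scores of 0.65 and 0.59, and its highest piece last in both replicates, at 0.92 and 0.69.

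Of the 5 domains of highest combined score, 3 were a single piece in each replicate. The highest, on 2R from 8924935 to 8932007 (7073 bp), scored 1.67 (ratio 3.18) and was 1 piece of 7003 bp at 1.62 in replicate 1 and of 7060 bp at 1.72 in replicate 2. Pieces of both replicates overlapped over 99.0% of its width. The 2R domain from 7776787 to 7783446 (6660 bp) scored 1.58, with 1.48 in replicate 1 and 1.70 in replicate 2, each in 1 piece. The 3R domain from 8325545 to 8337805 (12261 bp) scored 1.51, with 1.47 and 1.51. Replicate 1 had there a low piece of 1871 bp at 0.51 beside 10129 bp at 1.65, and replicate 2 had 1 piece of 11935 bp. The 3R domain from 7778397 to 7788096 (9700 bp) scored 1.49, with 1.54 and 1.58, and the 3L domain from 624622 to 631061 (6440 bp) scored 1.37, with 1.31 and 1.45. All 5 were above a ratio of 2 in each replicate.

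The 5 domains of lowest combined score differed in how far pieces covered them. Their combined scores were 0.34 to 0.37, ratios of 1.27 to 1.30. The 3R domain from 17456056 to 17462338 (6283 bp) scored 0.34, with 0.59 in replicate 1 over 1421 bp and 0.42 in replicate 2 over 2 pieces, and 43.1% of its width lay in no piece. The 3L domain from 21047087 to 21053779 (6693 bp) scored 0.36, with 0.49 and 0.40, and 36.9% in no piece. The 3L domain from 11286218, whose replicate pieces do not meet, scored 0.34 with 0.60 and 0.45. The 3L domain from 9684938 to 9692651 (7714 bp) scored 0.37 and was better covered, 81.6% in replicate 1 and 79.2% in replicate 2, by 3 pieces in each. On 3R the domain from 16381073 to 16387580 scored 0.37 and had 20.9% of its width in both replicates. Across all 234 domains the combined score and the share of width in both replicates had a Spearman rho of 0.65, a value that shares its libraries on both sides.

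The 5 domains with the largest difference between the replicates were all higher in replicate 2. The largest was on 3R from 8470962 to 8478463 (7502 bp), at 0.84 in replicate 1 and 1.53 in replicate 2. Replicate 1 divided the peak there into 1794 bp at 0.49 and 2206 bp at 1.12, and replicate 2 had 1 piece of 4887 bp. The others were on 2R from 11368122 to 11374549 (1.01 and 1.48), on 3R from 12173597 to 12179823 (0.55 and 0.97), on 3R from 2909939 to 2921631 (0.95 and 1.32) and on 2L from 9892277 to 9899169 (0.89 and 1.25). The 2R domain was 1 piece in each replicate, over 97.7% of its width in replicate 1 and 91.5% in replicate 2.

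The domains were spread unevenly over the arms. Arm 2R had 77 of 234 domains (32.9%), 3.64 per Mb of assembled length, against 2.13 on 2L (49 domains), 2.24 on 3L (55) and 1.90 on 3R (53). Narrower shared regions were also densest on 2R, with 25.7% of them there, 35.1 per Mb against a mean of 29.9. Among the shared regions of each arm, domains made up 9.39% on 2R, 7.71% on 3L, 7.29% on 2L and 5.79% on 3R. Domains covered 3.21% of the length of 2R, 1.86% of 2L, 1.75% of 3L and 1.55% of 3R. Of the 43 domains of 10000 bp or more, 21 were on 2R (48.8%), 12 on 2L, 6 on 3R and 4 on 3L. Median scores of the arms were close, from 0.61 on 3L to 0.69 on 3R.

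Over the 4 arms together, the ends that face the centromere held more domains than any other part of equal length, though not on each arm. When each arm was cut into 10 equal parts, the part next to the centromere held 52 of 234 domains (22.2%), 5.38 per Mb, the next part 33, and part 7 held 9. Part 1 held 15 of 49 domains on 2L, 18 of 77 on 2R, 9 of 55 on 3L and 10 of 53 on 3R. On 3L the outermost part held as many, 9 of 55. On 3R part 1 held 18.9% of the domains and 14.9% of the narrower shared regions, and on 3L it held 16.4% and 8.21%. On 2L these shares were 30.6% and 11.2%, and on 2R 23.4% and 10.4%. Over all arms the narrower shared regions were spread more evenly, with 11.4% in part 1, 12.3% in part 2 and 11.2% in part 7. The outermost part held 32 domains (13.7%) and 11.6% of narrower shared regions. Within 1 Mb of the assembled centromere end lay 31 domains (13.2%) and 4.36% of the narrower shared regions. By arm these were 12 of 49 domains on 2L (24.5%, against 3.21% of narrower shared regions) and 9 of 77 on 2R (11.7%, against 4.31%). On 3L they were 3 of 55 (5.45%, against 2.43%) and on 3R 7 of 53 (13.2%, against 6.72%). In the replicate 1 list, 7 of 61 regions of 6000 bp or more (11.5%, 95% exact interval 4.74 to 22.2%) lay there. The share of narrower regions of that list, 5.66%, was inside the interval. In the replicate 2 list it was 13 of 100 (13.0%, 7.11 to 21.2%), against 4.79% of narrower regions, a share below the interval. These intervals treat regions as independent, which regions of the same library are not, so neither comparison is a test. All 61 of these regions in replicate 1 and 99 of the 100 in replicate 2 overlapped domains, so they are not a separate set. Domains within 2 Mb of these ends, 48 in number, had medians of 7653 bp in width and 0.67 in score, against 7284 bp and 0.63 for the other 186. Only 2 of the 48 had a combined ratio above 2, against 22 of the 186. The handling of reads that match more than 1 place is not stated in these sources, and its part in this share was not tested.

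**Figure D5:**
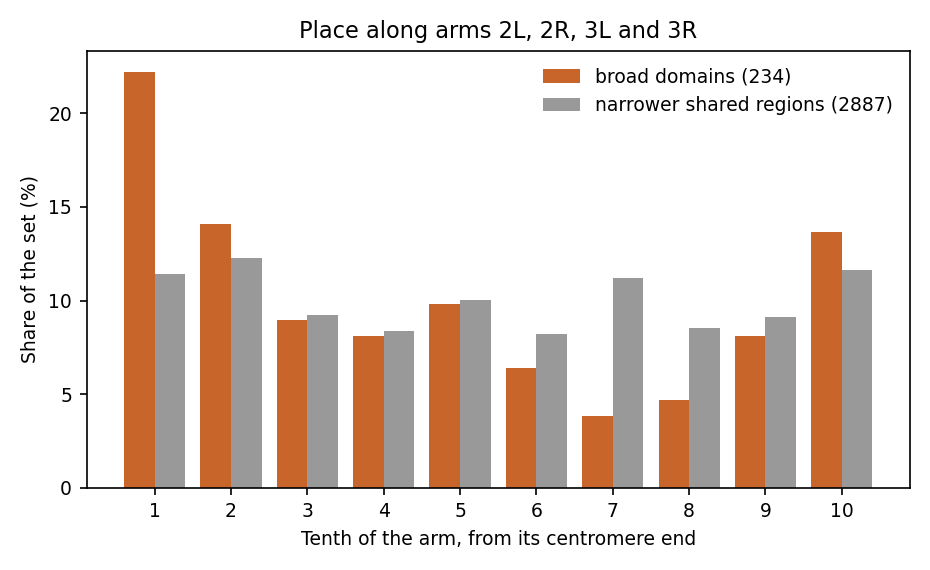
Share of the 234 domains and of the 2887 narrower shared regions (vertical axis, percent of the set) in each of 10 equal parts of the arms 2L, 2R, 3L and 3R counted from the centromere end (horizontal axis). Part 1 holds 22.2% of the domains and 11.4% of the narrower regions, and part 7 holds 3.85% and 11.2%.

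Most domains stood apart from other domains but close to smaller regions. The nearest other domain was a median of 108 kb away, a distance that depends on the width limit (43.8 kb at 5000 bp and 406 kb at 8000 bp), and 28 of 234 had one within 10 kb. The nearest shared region of any width was a median of 4.13 kb away, against 5.76 kb for narrower shared regions. Any other combined-list region, shared or not, lay within 1000 bp of 114 domains (48.7%) and of 33.6% of narrower shared regions. A domain was therefore often next to another entry of the list. Joining combined-list regions separated by 1000 bp or less before the width was taken gave 565 domains in place of 234.

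Where domains adjoined, they made up long stretches. A pair on 2R was separated by 8 bp, and together the 2 domains ran from 8888233 to 8918457, 30.2 kb. With the domain of highest score, the next along the arm, they formed a group from 8888233 to 8932007, of which 85.2% lay in domains with scores from 0.68 to 1.67. At a joining distance of 50 kb the group grew to 5 domains from 8840483 to 8932007, 91.5 kb with 59.4% in domains. The replicate scores of its 2 leftmost members were 0.83 and 1.03, and 0.55 and 0.64. The other group of 5 was on 2L from 22420946 to 22496144, 75.2 kb with 57.8% in domains, whose near edges lay between 0.515 and 0.578 Mb from the centromere end. Its combined scores were lower, from 0.41 to 0.83. A group of 3 on 3L from 615577 to 642119 spanned 26.5 kb and included the 3L domain with the score of 1.37, and a group of 3 on 3R from 27521927 to 27552744 spanned 30.8 kb with scores from 0.62 to 0.75. In all, 12 groups held 28 domains at a joining distance of 10 kb, and 31 groups held 78 at 50 kb.

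Shared regions of the same width on other sequences were described in the same way. The X chromosome had 77 shared regions of 6000 bp or more, with medians of 7754 bp and 0.70, against 7361.5 bp and 0.64 for the autosome domains. Replicate 1 split 55.8% of them and replicate 2 split 55.8%. Heterochromatic sequences assembled apart from the arms, with the unplaced sequence U, had 36, with medians of 7996 bp and 0.68, and replicate 1 split 41.7% of them. Chromosome 4 had 5. None of these differences was tested. The 4 regions of 6000 bp or more on the 4 arms that were not in both replicate lists were 6036 to 6960 bp wide with combined scores from 0.35 to 0.70, and 2 were in replicate 1 alone and 2 in replicate 2 alone.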

How the data were processed

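ChIP-seq of 2 replicates and 2 inputs was processed by the authors. The submitters' processing notes name Bowtie 0.12.7, and positions follow FlyBase release 5 per the file headers. Which caller and threshold were used, whether the inputs entered, and how the replicates were merged are points these sources leave unstated. The authors deposited region lists for replicate 1 (5514), replicate 2 (6004) and both combined (9756), with a score per region that is treated here as log2. No header states that scale: among pairs of the 12 most frequent scores of a list, 16 of 66 (combined), 44 of 66 (replicate 1) and 24 of 66 (replicate 2) differed by the log2 of a fraction of whole numbers (denominators up to 40, tolerance 1e-07), and natural log and base 10 matched 0. Depth is unknown because the lists hold no counts.

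Overlaps were computed in Python 3.11.15 (pandas 2.3.3, numpy 2.4.6; intervals from scipy 1.17.1), tested on simulated lists against bedtools 2.31.1, and drawn with matplotlib 3.10.9. Members, measures and named domains were chosen with earlier results of these data known. Named were the 10 widest domains, the widest on each arm, the 5 with most pieces (ties broken by width), the 5 highest and 5 lowest in score, the 5 with the largest replicate difference, and 3 on each side of the width limit. The 3L and 2L domains with the longest gaps, the groups of adjacent domains, and the place along the arms were added after their values were seen. Nothing in the labels tells if the replicates are separate collections of larvae. Genes and motifs were not analysed here, for want of a genome or annotation of release 5.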

Additional observations from a re-analysis of the deposited data

How the results depend on the processing

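Over 10 results and 73 alternative values, 34 moved. The other 39 stayed within 1.5 times the main count (number of domains), the 95% exact binomial interval (split, 2R and centromere-end shares) or 1 SD of the replicates (other results). With limits of 5000, 8000 and 10000 bp there were 402, 86 and 43 domains in place of 234, spanning 2.88, 0.956 and 0.571 Mb in place of 1.97 Mb. Pieces per domain, averaged over the replicates, were 1.5, 1.99 and 2.23 in place of 1.65, domains split in at least 1 replicate 60.4, 87.2 and 93.0% in place of 71.4%, the median score 0.62, 0.70 and 0.74 in place of 0.64, and the median highest piece 0.72, 0.83 and 0.89 in place of 0.77. At 10000 bp, 2R held 48.8% of domains in place of 32.9%, and 18.6% lay within 1 Mb of the centromere end in place of 13.2%; within 2 Mb it was 20.5% at the main limit. The median distance to the nearest domain was 43.8, 406 and 904 kb at the 3 limits in place of 108 kb. The values at 5000 and 8000 bp count as unmoved only because the replicate lists alone differed widely, at 747 and 303 kb. Requiring each replicate to cover at least 50% gave 1.71 Mb and a median score of 0.69. Joining combined-list regions within 1000 bp first gave 565 domains, 5.30 Mb, 1.99 pieces per domain and 83.2% split. Counting pieces within 200 bp as 1 gave 1.5 pieces and 61.5% split. The median score was 0.72 as a length-weighted mean of pieces and 0.77 as the highest piece. With a replicate left out, the split share ranged from 48.3 to 55.5%, since a single list then has to show the split. Of 108 alternative scores of the 27 named domains, 56 stayed within 1 SD and 52 lay further away. That SD comes from the 2 replicate scores, which were themselves among the alternatives, and it is widest where the replicates differed most. The counts therefore do not measure how stable the scores were. For the same reason, pieces per domain, cover and the highest piece could hardly move when a replicate was left out. The alternatives for the place along the arms were chosen after seeing the data. The gene and motif alternative was not run. No paired analysis was possible because no region list of the inputs was used and no result comes from a test. With 2 replicates, SDs are imprecise, and unknown depth limits what a missing piece can show.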
